A study of Mus musculus with 6 samples.

Results

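The 9 genes described here encode the enzymes of the urea cycle and of citrulline and arginine synthesis, namely Nags, Cps1, Otc, Ass1, Asl, Arg1, Arg2, Oat and Glul. They were chosen by symbol and make up 9 of the 23366 genes counted in each library. The libraries hold RNA of epithelium sorted from the small intestine of mouse embryos, all at E13.5. The mutant group carried Shh-cre-egfp and Tcf7l1 lox/lox and the control group was wild type, with 3 biological replicates in each, none of them treated. In the mutants, Cre recombinase is made from the Shh locus, which is active in the epithelium of the embryonic gut, and removes a floxed exon of Tcf7l1, a transcriptional repressor of the TCF/LEF family that acts in WNT signalling. The labels give the control genotype only as wild type and name no Cre or floxed allele for it. An effect of the Cre allele itself can therefore not be told apart from that of Tcf7l1 loss. Each library was prepared from 500 sorted cells carrying EpCAM, a surface protein of epithelial cells.

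The urea cycle turns ammonia into urea. In mitochondria, NAGS makes N-acetylglutamate, the activator of CPS1, which forms carbamoyl phosphate, and OTC joins this to ornithine to give citrulline. In the cytosol, ASS1 and ASL convert citrulline to arginine, and arginase splits arginine into urea and ornithine. The liver is known for the full cycle, whereas the small intestine is known for the mitochondrial steps, with ornithine supplied from glutamate and proline through OAT, and for releasing citrulline into the blood. The newborn intestine is also known to make arginine itself.

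Total counts lay between 18216537 and 20397278 reads per library. Tcf7l1 was at 438 ± 64.1 normalized counts (SD, n = 3) in the wild type and 49.1 ± 21.1 in the mutant libraries, and Shh, whose locus carries the Cre-EGFP insertion, at 481 ± 65.8 and 198 ± 22.6. Both were called lower in the mutant. The part of the lower Shh in the differences below was not tested. Epcam, the sorted marker, was the highest of 10 epithelial markers, whose summed level was 166850 to 175790 in the wild type and 162450 to 166990 in the mutant libraries, with Cdh1, Krt18 and Cdx2 called lower. Xist had between 229 and 424 counts in the mutant libraries and 0 in the wild type ones, and 4 genes of the Y chromosome (Kdm5d, Uty, Eif2s3y, Ddx3y) had at least 283 counts in each wild type library and 0 in each mutant. Wild type 3 stood apart: its counts differed from those of wild type 1 and 2 by a chi-square of 16.0 and 17.9 per gene, against 8.57 between these, and it was nearer to the mutants (27.9 to 32.3) than they were (39.0 to 54.2). Without it, the log2 fold changes of Otc, Cps1 and Oat were 0.93, 0.56 and 0.37. Because Xist and the Y chromosome genes split the libraries by group, sex and genotype cannot be told apart in any comparison of them.

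Otc and Cps1, the genes of the citrulline-forming steps in mitochondria, rose in the mutant epithelium, Otc 1.74-fold and Cps1 1.53-fold. Oat, whose enzyme feeds ornithine to OTC, was higher by 1.28-fold. The later enzymes Ass1, Asl, Arg1 and Arg2, the activator enzyme Nags and the glutamine synthetase gene Glul did not pass the test. A gene was called if its adjusted p was under 0.01 (edgeR quasi-likelihood test, Benjamini-Hochberg over all genes tested), its absolute log2 fold change at least 0.5 and its mean normalized count at least 50. All 9 genes entered the test, and 2 were called higher and 0 lower, where 2.78% of the 12501 genes tested were called higher and 5.83% lower. At an unadjusted p under 0.05, 3 of the 9 were higher and 0 lower in edgeR, where 18.6% and 21.6% of all genes were, and DESeq2 called the same 2 higher and 0 lower. Without the fold minimum, 3 of the 9 passed as higher and 0 as lower, where 7.22% and 7.00% of all genes did. The median log2 fold change of the 9 genes was 0.19 and that of all genes tested -0.04. Called genes were higher in the mutant in 32.3% of all calls, and in 17.3% when library size was the only scaling. Otc and Cps1 were still called under that scaling, at log2 fold changes of 0.70 and 0.502, Cps1 only just above the minimum of 0.5.

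Otc encodes ornithine transcarbamylase and lies at chrX:9829431-9898150 on the plus strand (mm9), with 11 exon blocks. Wild type 1, 2 and 3 had 606, 619 and 756 normalized counts of Otc, against 1176, 1129 and 1149 for mutant 1, 2 and 3. The mutant libraries lay close together and all above the wild type ones, of which the third was the highest. The means were 660 ± 82.9 and 1152 ± 23.8 (SD, n = 3), a log2 fold change of 0.80 with a standard error of 0.11 and a 95% interval of 0.56 to 1.05 (adjusted p = 0.000126). Leaving out each library in turn gave 0.74 to 0.93 and kept the call. Because Otc is X-linked and the mutant libraries held Xist, it was set beside the 419 X-linked genes tested, of which 2.86% were called higher and 5.97% lower, with a median log2 fold change of -0.02. Otc ranked 10 from the top among them. The part of sex in its difference was not tested.

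Cps1 encodes carbamoyl phosphate synthetase, the ammonia-binding enzyme at the entry of the cycle, and lies at chr1:67169600-67277833 on the plus strand with 38 exon blocks. Its normalized counts were 8404, 10230 and 8004 in wild type 1 to 3 and 14395, 12252 and 14012 in mutant 1 to 3. Even the lowest mutant library, the second, was above the highest wild type library, also the second. The means were 8879 ± 1187 and 13553 ± 1143 (SD, n = 3), a log2 fold change of 0.61 with a standard error of 0.09 and an interval of 0.42 to 0.80 (adjusted p = 0.000166). Without each library in turn it was between 0.56 and 0.72, called each time.

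Nags encodes the synthase of the CPS1 activator and lies at chr11:102006827-102010791 on the plus strand. It was counted at 64.7, 84.8 and 67.5 in the wild type and 97.3, 93.7 and 56.4 in the mutant libraries, as normalized counts. Mutant 3 held the lowest value of all, so the groups overlapped. The log2 fold change was 0.19 with an interval of -0.48 to 0.86 (adjusted p = 0.692), which leaves changes as large as that of Otc undetected at this depth, and was 0.055 without mutant 1 and 0.40 without mutant 3. Of its exon bases, 15.6% also lie in a gene on the opposite strand, and whether reads were counted by strand is not given in the sources used here.

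Oat encodes ornithine aminotransferase, which links glutamate and proline to ornithine, and lies at chr7:139749158-139768081 on the minus strand. Its normalized counts were 37475, 41389 and 39465 in the wild type and 50225, 49289 and 52138 in the mutant libraries. The 3 mutant libraries lay above all wild type ones, and each group was narrow. The means were 39443 ± 1957 and 50551 ± 1452 (SD, n = 3), a log2 fold change of 0.36 with a standard error of 0.06 and an interval of 0.23 to 0.49 (adjusted p = 0.000537). Oat thus passed the p threshold and was not called, since its log2 fold change lies below the fold minimum of 0.5.

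**Figure D1:**
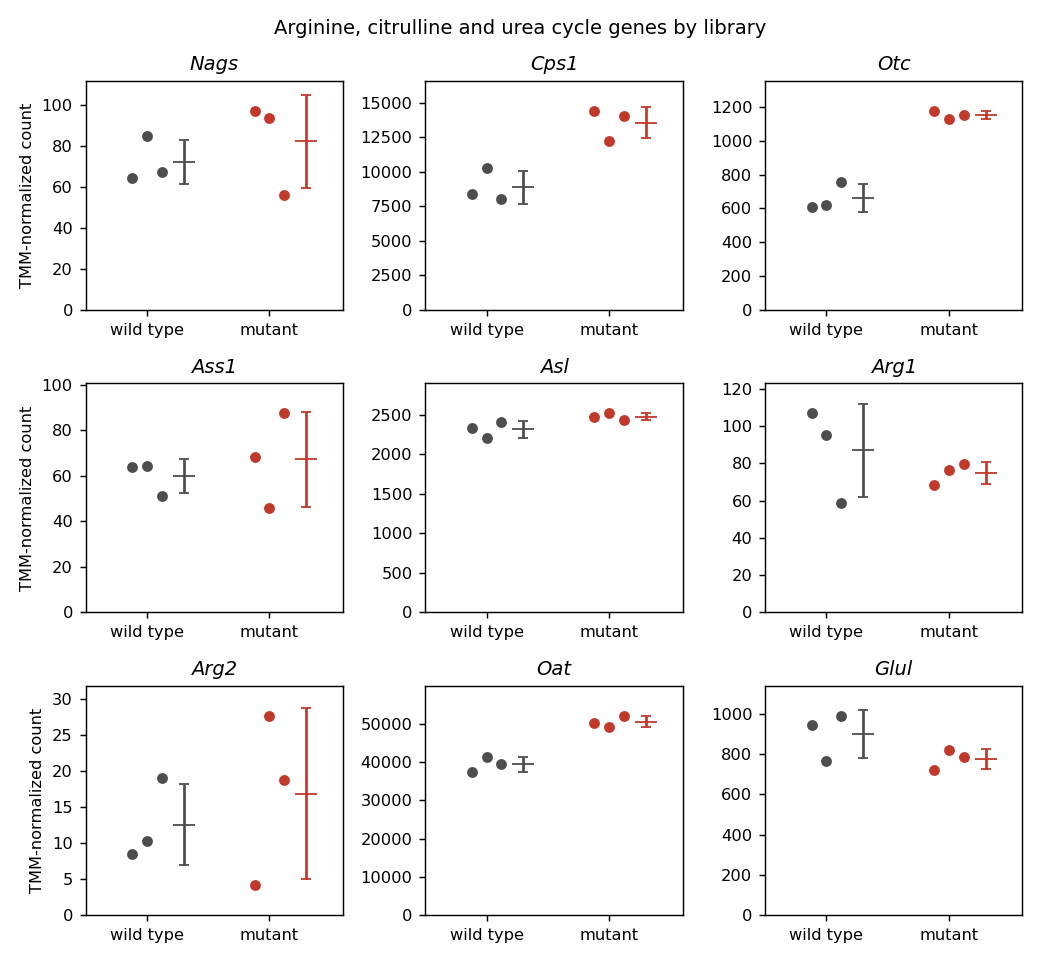
TMM-normalized counts (vertical axes from 0, a scale of its own for each gene) of the 9 genes in the 3 wild type (grey) and 3 mutant (red) libraries, 1 point a library, with the mean and SD beside each group. For Otc, Cps1, Oat and Asl all mutant points lie above all wild type points, whereas the groups of the other 5 genes overlap.

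RefSeq promoter windows of 250 bases before the start site (build GRCm38.p6) matched 5 of the 9 genes: Otc, Ass1, Oat, Nags and Glul. Those of Cps1, Asl, Arg1 and Arg2 are not shown here. The windows of Otc and Oat are printed since both genes were higher in the mutant and their base composition differs, and that of Nags since it was the only one of the 5 with a TCF/LEF core. They lie at chrX:10252055-10252304 on the plus strand, chr7:132576399-132576648 on the minus strand and chr11:102145263-102145512 on the plus strand. Each is written 5′ to 3′ toward the start site, with motif matches in capitals.
Otc: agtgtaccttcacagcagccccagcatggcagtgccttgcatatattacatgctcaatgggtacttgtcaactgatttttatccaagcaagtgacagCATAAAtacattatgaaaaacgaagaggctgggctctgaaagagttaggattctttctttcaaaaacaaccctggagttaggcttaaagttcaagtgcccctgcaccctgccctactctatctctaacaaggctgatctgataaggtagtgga
Oat: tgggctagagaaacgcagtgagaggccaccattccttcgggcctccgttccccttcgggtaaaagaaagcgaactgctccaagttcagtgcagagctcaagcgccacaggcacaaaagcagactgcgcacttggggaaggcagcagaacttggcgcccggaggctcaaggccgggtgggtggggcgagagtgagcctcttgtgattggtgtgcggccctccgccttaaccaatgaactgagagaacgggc
Nags: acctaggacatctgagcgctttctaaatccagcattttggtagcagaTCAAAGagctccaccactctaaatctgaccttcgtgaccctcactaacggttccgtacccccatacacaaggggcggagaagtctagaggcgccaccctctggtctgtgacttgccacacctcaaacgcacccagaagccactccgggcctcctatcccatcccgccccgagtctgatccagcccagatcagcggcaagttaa

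The Otc window had 43.6% G and C and 1 CpG, against 60% and 14 CpG in the Oat window, 55.6% and 11 in the Nags window, 64.8% and 15 in that of Glul and 75.6% and 23 in that of Ass1. Over 32851 promoters of the same length the medians were 52.4% and 6 CpG, and 18.8% had no more CpG than Otc. Short cores of TCF/LEF (CTTTGA and CTTTGT) and of CDX (TTTATG and TTTATT), and CAAAGTCCA for HNF4, were searched on both strands. The HNF4 letters begin with the reverse complement of most of the TCF/LEF core, so those motifs can overlap. Otc held TTTATG on the minus strand, beginning 153 bases before the start, and Nags held CTTTGA on the minus strand, 203 bases before it. Glul held TTTATT on the minus strand, 15 bases before its start, and the Oat and Ass1 windows held none of these letters. CTTTGA was found in 13.8% of all promoters, either TCF/LEF core in 27.6%, TTTATG in 10.8% and TTTATT in 18.1%. These matches describe letters in a window and are not binding sites.

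Asl encodes argininosuccinate lyase, the last step of arginine synthesis, and lies at chr5:130487128-130501002 on the minus strand. Its normalized counts were 2330, 2203 and 2411 in the wild type and 2476, 2516 and 2437 in the mutant libraries. The mutant libraries lay just above the wild type ones, as they did for 20.8% of all genes tested, while 22.2% had all mutant libraries below, which was so for 0 of the 9 genes here. The log2 fold change was 0.10 with an interval of -0.06 to 0.26 (adjusted p = 0.366), and with library size as the only scaling it was -0.01.

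Ass1 encodes argininosuccinate synthetase, which joins citrulline to aspartate, and lies at chr2:31325727-31376192 on the plus strand. Its normalized counts of 63.8, 64.3 and 51.3 in the wild type and 68.3, 45.8 and 87.4 in the mutant libraries were far below those of Asl. The widest spread was among the mutants, and the groups overlapped. At a log2 fold change of 0.17, with an interval of -0.57 to 0.91 (adjusted p = 0.756), a rise of the size seen for Cps1 was not detectable. The count is uncertain: a copy at chr10:61533764-61535357 matches 94.1% of the transcript at 99.3% identity, and 870 of 1613 windows of 84 bases, the read length, occur at both places. Reads from those 53.9% of windows map to more than 1 place and were not counted, since the authors kept uniquely mapping reads.

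The arginases, which release urea and ornithine, were both low. Arg1, the cytosolic form known from liver, lies at chr10:24635014-24647276 on the minus strand and had 107, 95.1 and 58.9 normalized counts in the wild type and 68.3, 76.7 and 79.6 in the mutant libraries. Its values overlapped, with the wild type libraries wider apart than the mutants, and the log2 fold change was -0.22 with an interval of -0.87 to 0.44 (adjusted p = 0.641), moving from -0.04 without wild type 1 to -0.42 without wild type 3. Arg2, the mitochondrial form, lies at chr12:80231764-80257288 on the plus strand and had 8.44, 10.3 and 19.0 normalized counts in the wild type and 4.14, 27.7 and 18.8 in the mutant libraries. It was the only one of the 9 genes under a mean of 50, its log2 fold change of 0.42 had an interval of -1.11 to 1.95 (adjusted p = 0.700), and it turned to -0.14 without mutant 2. Of its exon bases, 19.96% also lie in Vti1b on the opposite strand.

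Glul encodes glutamine synthetase, which fixes ammonia into glutamine outside the cycle, and lies at chr1:155747074-155756853 on the plus strand. Its normalized counts were 943, 764 and 990 in the wild type and 720, 819 and 787 in the mutant libraries. Wild type 2 lay among the mutants and the other wild type libraries above them. The log2 fold change was -0.21 with an interval of -0.47 to 0.04 (adjusted p = 0.203), and 4.65% of its windows of read length also occur elsewhere in the genome.

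**Figure D2:**
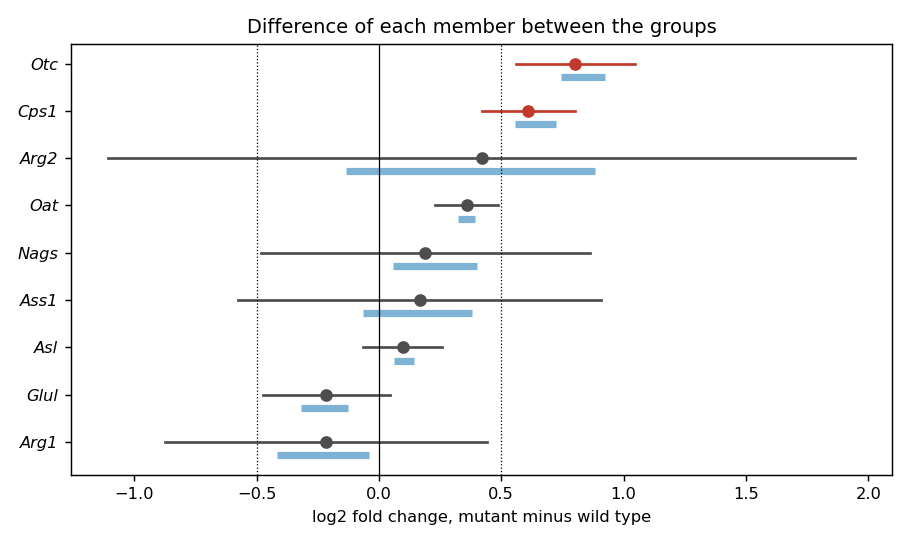
log2 fold change, mutant minus wild type, of each of the 9 genes (horizontal axis), with the 95% interval as a thin line, red for the called genes, and the range over the 6 fits that leave out 1 library as a blue bar. Dotted lines mark the fold minimum of 0.5 in either direction. Otc at 0.80, Cps1 at 0.61 and Oat at 0.36 have intervals that lie above 0, and those of the other 6 genes cross it.

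Levels were compared between genes as RPKM, the normalized reads scaled to library size and to the length of the exons. Oat stood far above the others, at 938 ± 46.5 RPKM in the wild type and 1202 ± 34.5 in the mutant libraries (SD, n = 3), rank 13 of 11790 tested genes with a gene model. Cps1 followed at 81.9 ± 10.9 and 125 ± 10.5 RPKM, then Asl at 26.0 ± 1.18 and 27.8 ± 0.45. In wild type Glul, at 13.8 ± 1.83 RPKM, lay above Otc at 7.98 ± 1.002, and in the mutant Otc, at 13.9 ± 0.29, lay above Glul at 11.9 ± 0.78. In each group the ranges of these genes did not overlap. Arg1 was at 3.02 and 2.60 RPKM, Ass1 at 1.33 and 1.49, Nags at 1.31 and 1.49 and Arg2 at 0.45 and 0.61. Of neighbours in this order, Ass1 and Nags were the only pair whose ranges overlapped, in both groups. Ass1 was thus below Asl, the enzyme that acts on its product, its highest library at 1.94 RPKM and the lowest of Asl at 24.7, within the limit given above for reads of Ass1.

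Oat and Cps1 together took 91.6% to 93.1% of the reads of the 9 genes in the wild type and 92.9% to 93.5% in the mutant libraries. The 9 genes took 0.267% to 0.301% of all reads in the wild type and 0.325% to 0.351% in the mutant libraries, and these ranges did not overlap. In bulk libraries a larger share of cells that make a transcript and more transcript per cell cannot be told apart.

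**Figure D3:**
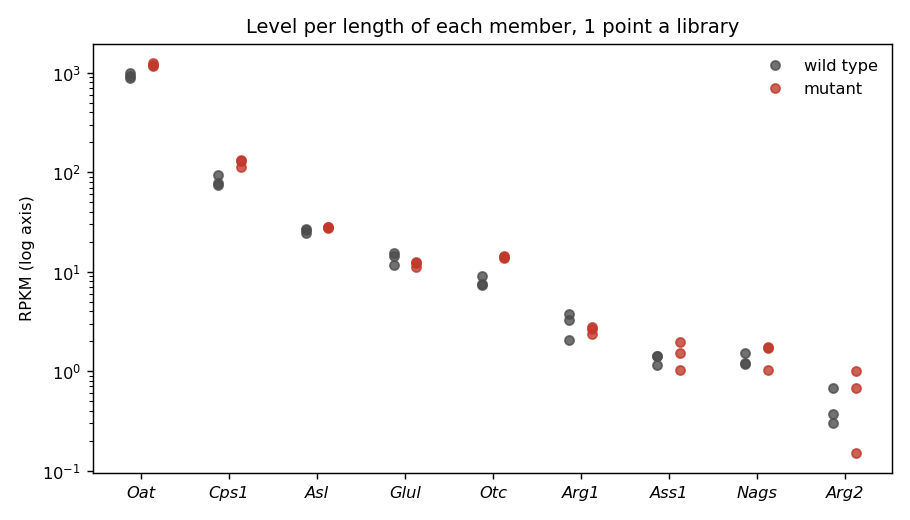
RPKM of the 9 genes on a log axis, 1 point a library, wild type grey and mutant red, ordered by the wild type mean. Oat lies highest, at 938 RPKM in wild type, and Arg2 below 1, and Otc is below Glul in the wild type and above it in the mutant libraries.

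Ratios within a library do not depend on its scaling, except through the prior count of 2, which matters for low counts such as those of Arg2. With a prior count of 0.5 the difference in Arg2 to Arg1 was 0.32, against 0.34 with 2. The 4 ratios were compared by an exact two-sided permutation test over the 6 libraries. It cannot give a p below 0.1 and so could not pass a threshold of 0.05. The log2 ratio of Cps1 to Otc counts was 3.74 ± 0.32 in the wild type and 3.55 ± 0.10 in the mutant libraries (exact permutation p = 0.5), a difference of -0.19 that was -0.04 without wild type 2 and -0.36 without wild type 3. That of Oat to Otc was 5.90 ± 0.18 and 5.45 ± 0.04, lower in all mutant libraries than in any wild type library (exact permutation p = 0.1, adjusted 0.4 over the 4 ratios). For Ass1 to Asl the log2 ratios were -5.23 ± 0.23 and -5.21 ± 0.48, and for Arg2 to Arg1 -2.64 ± 0.97 and -2.30 ± 1.09 (exact permutation p = 0.9 for each). Both differences changed sign with 1 library left out, between -0.19 and 0.28 and between -0.11 and 0.95.

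Genes that supply, carry, use or regulate the pathway were counted in 6 lists holding 58 genes, of which 50 were tested. Of these, 8 were called higher and 2 lower, where 2.78% and 5.83% of the 12501 genes tested were. Their median log2 fold change was 0.14. The lists were chosen with earlier results of these data known. At the unadjusted p under 0.05 used for the lists below, 18.6% of all genes tested were higher and 21.6% lower. Nos1, Nos2, Nos3, Slc25a2, Oaz1, Amd1, Car5a and Car5b had too few reads to be tested, and for Oaz1 and Amd1 73.8% and 81.7% of windows of read length occur elsewhere, so that reads from them were not counted.

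None of 9 genes that make glutamate, proline and ornithine precursors was called by edgeR or DESeq2. At an unadjusted p under 0.05, 2 were higher and 3 lower. The largest difference was that of Aldh4a1, a mitochondrial dehydrogenase that completes the breakdown of proline to glutamate. It had 51.6, 52.2 and 66.5 normalized counts among the wild types against 29.0, 14.9 and 14.4 among the mutants. The mutants lay below all wild types, at a log2 fold change of -1.54 ± 0.47 (SE, adjusted p = 0.0224), which did not pass.

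Among 13 carriers and transporters, 12 were tested and 2 called, both higher. With an unadjusted p under 0.05, 4 were higher and 0 lower, and DESeq2 called 2 higher and 0 lower. Slc3a2, the heavy chain shared by several amino acid exchangers, had 5011, 4569 and 5403 normalized counts in the wild type and 7648, 7956 and 7668 in the mutant libraries, with a log2 fold change of 0.64 ± 0.07 (SE, adjusted p = 1.64e-05). Slc7a9, the light chain of the apical carrier of cystine and dibasic amino acids such as arginine and ornithine, had 553, 564 and 661 against 987, 826 and 805, a log2 fold change of 0.56 ± 0.13 (SE, adjusted p = 0.00417). The groups did not overlap for either gene, but Slc7a9 lost its call without wild type 1 (0.51, adjusted p = 0.0266), wild type 2 (0.52, 0.0224), mutant 1 (0.46, 0.0310) or mutant 2 (0.60, 0.0102), with only library size for scaling (0.46, 0.0154) and with a gene length correction (0.49, 0.00948). The mitochondrial ornithine carrier Slc25a15, which brings OTC its substrate, had a log2 fold change of 0.20 and did not pass (adjusted p = 0.0967).

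Of 9 genes that use arginine or act on compounds made from it, 6 were tested, 2 were called higher and 1 lower. Agmat, annotated as the hydrolase of agmatine, a product of arginine, had 143, 267 and 189 normalized counts in the wild type and 527, 504 and 415 in the mutant libraries, a log2 fold change of 1.27 ± 0.21 (SE, adjusted p = 0.000379). Gatm, which makes guanidinoacetate on the way to creatine, had 278, 282 and 314 against 508, 581 and 391.6, a log2 fold change of 0.76 ± 0.17 (SE, adjusted p = 0.00333). Both rose in the mutant without overlap of the groups, and the call of Gatm was lost without wild type 1, wild type 2, mutant 1 or mutant 2, with log2 fold changes of 0.73, 0.74, 0.74 and 0.63, and with only library size for scaling (0.66, adjusted p = 0.0108). Ddah2, which breaks down methylarginines, fell from 3916, 4092 and 3975 to 2423, 2572 and 3006, a log2 fold change of -0.58 ± 0.08 (SE, adjusted p = 0.000138).

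Of 8 tested genes of polyamine synthesis and turnover, which starts from ornithine, Sat1 was called higher, and DESeq2 also called Srm. Sat1, the acetyltransferase that starts polyamine breakdown, had 3328, 2846 and 3375 normalized counts in the wild type and 5248, 5285 and 5329 in the mutant libraries, a log2 fold change of 0.73 ± 0.08 (SE, adjusted p = 6.45e-06), and it lies on the X chromosome, so the limit on sex applies to it too. Odc1, ornithine decarboxylase, at 0.37, and Srm, spermidine synthase, at 0.49 passed the p threshold without reaching the fold minimum, and were named after their values were seen. Reads of Odc1 and Sat1 are partly uncertain, since 34.6% and 20.5% of their windows occur elsewhere. No gene of this list was called lower by edgeR or DESeq2. With an unadjusted p under 0.05, 3 were higher and 1, Oaz2, was lower.

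Of 8 tested genes of nitrogen and aspartate supply, 2 were called higher and 1 lower. Asns, asparagine synthetase, had 2194, 2148 and 2267 normalized counts in the wild type and 3480, 3201 and 3215 in the mutant libraries, a log2 fold change of 0.58 ± 0.08 (SE, adjusted p = 4.97e-05). Got1, the cytosolic transaminase that makes aspartate, the partner of citrulline in the ASS1 step, had 1060, 1335 and 1522 against 2111, 1851 and 1865, a log2 fold change of 0.57 ± 0.12 (SE, adjusted p = 0.00215). Gpt2, the mitochondrial alanine transaminase, fell from 615, 698 and 575 to 414, 339 and 442, a log2 fold change of -0.66 ± 0.14 (SE, adjusted p = 0.00347). The groups of these 3 genes did not overlap. Got2, the mitochondrial counterpart of Got1, went the other way, from 768, 785 and 657 to 569, 524 and 487 normalized counts. Its log2 fold change was -0.48 ± 0.13 (SE, adjusted p = 0.0105), which did not pass, and 39.1% of its windows of read length occur elsewhere. At an unadjusted p under 0.05, 5 genes of this list were higher and 2, Got2 and Gpt2, lower. With only library size for scaling, Asns and Got1 lost their calls (0.48 and 0.47). Got1 also lost its call without wild type 1 (0.44) or mutant 1 (0.51) and with a gene length correction (0.496), and Gpt2 without wild type 1 (-0.68), wild type 2 (-0.58), mutant 1 (-0.69) or mutant 2 (-0.56).

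Of 7 regulators, Cebpb was called higher, a factor known to bind promoters of urea cycle genes in liver. It had 591, 612 and 624 normalized counts in the wild type and 866, 925 and 983 in the mutant libraries, a log2 fold change of 0.60 ± 0.11 (SE, adjusted p = 0.00109), and lost its call with only library size for scaling (0.497) and with a gene length correction (0.40, adjusted p = 0.0161). Hnf4a, a nuclear receptor of liver and intestine, was at -0.17 (adjusted p = 0.307). None was called lower by edgeR or DESeq2, and 1, Nr3c1, the glucocorticoid receptor gene, was lower at an unadjusted p under 0.05, with a log2 fold change of -0.43 (adjusted p = 0.0221).

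**Figure D4:**
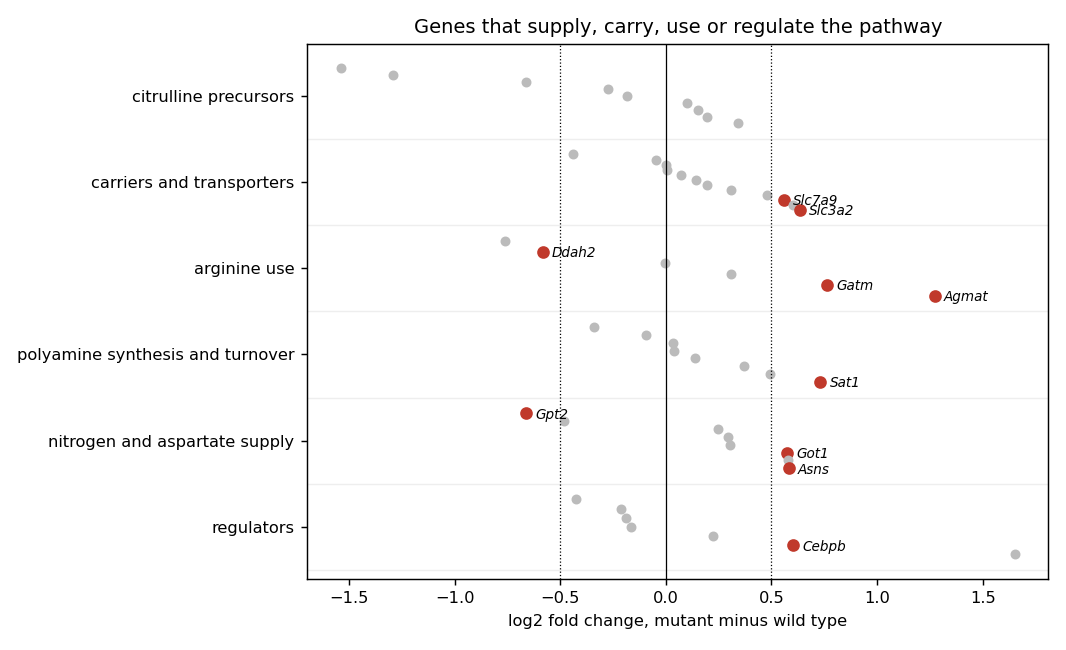
log2 fold change, mutant minus wild type (horizontal axis), of the 50 tested related genes, 1 point a gene, in the 6 lists, with called genes in red and named. Dotted lines mark the fold minimum of 0.5. Of the called genes 8 lie on the higher side, and Ddah2 and Gpt2 on the lower side.

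Likeness to Otc and Cps1 was described by Pearson's r of log2 CPM over the 6 libraries, in which any gene that differs between the groups in the same direction scores high. Most like Otc were Eif1ad (r = 0.999), Atp5b (0.999) and Marc2 (0.998), and 736 of 12492 genes reached 0.95. Most like Cps1 were Ppp1cc (0.997), Aqp8 (0.994) and Upb1 (0.993), and 88 genes reached 0.95. Ppp1cc, Aqp8 and Upb1 did not pass the edgeR test themselves (adjusted p = 0.0534, 0.0196 and 0.292). Otc and Cps1 themselves had r = 0.85, with the wild type libraries in a different order for each.

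Cps1, Otc and Arg1 are also abundant in hepatocytes, so markers of that and of other cell types were read in the same libraries. Of 12 hepatocyte markers 9 had counts, their summed level was 679 to 772 in the wild type and 45.4 to 79.7 in the mutant libraries, and Ahsg, Serpina3k and Tat were at 0 throughout. Serpina1a made up most of it, at 582 ± 55.2 and 28.9 ± 12.9 normalized counts (SD, n = 3), and was called lower, as was Fgb, while Alb had a mean of 2.18 in the wild type and 0 in the mutant. The other hepatocyte markers were not called. Summed mesenchyme markers were 137 to 232 in the wild type and 128 to 559 in the mutant libraries, with Acta2 the highest, and neural crest markers 191 to 220 and 180 to 378, with Elavl4 the highest. Blood markers summed to 0.95 to 31.7 and 3.19 to 12.4, with Lyz2 the highest and Hba-a1, Hbb-b1, Hbb-bh1 and Ptprc at 0. Endothelium reached at most 11.4 and 20.7, all from Pecam1, with Cdh5, Kdr, Tek, Emcn and Cldn5 at 0, and pancreas at most 0 and 3.32, from Cpa1. The part of other cell types in the differences above was not tested.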

How the data were processed

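RNA was measured in 6 libraries, 3 mutant and 3 wild type, and groups were taken from the genotype labels. The authors amplified cDNA for 15 PCR cycles, mapped reads of 84 bases with STAR 2.5.2b to mm9, used featureCounts 1.5.1 to count reads that map once and deposited raw counts, 1 table a library. The labels call the replicates biological without naming embryos, litters or sexes, so p-values measure only the spread between these libraries. Depth was 18216537 to 20397278 counts. Without molecular identifiers these are reads, not molecules.

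Genes were tested with edgeR 4.0.16 (R 4.3.3) on all 6 libraries: TMM normalization, filterByExpr (12501 of 23366 genes kept), quasi-likelihood test and Benjamini-Hochberg adjustment over all tested genes. The common dispersion was 0.0209. The authors' expression minimum of 50 RPKM was replaced by a mean normalized count of 50 and kept as an alternative. Standard errors were computed as the absolute log2 fold change divided by the root of F, intervals from the t distribution. RPKM used the union of exons of an annotation of the same build, and ratios a prior count of 2. Near copies were searched with minimap2 2.31-r1302 and windows of read length matched exactly. The test was checked on simulated counts. The 9 genes, the related and marker lists and the promoter motifs were chosen with earlier results of these data known. Named were all 9 genes, each called gene of a related list, the highest gene of each marker list, Tcf7l1 and Shh, and for called members the 3 genes with the highest correlation. Other genes were named after their values were seen. A few related genes and 1 motif are not reported here. The gene spelled Azin2 elsewhere is Adc in the tables. Alternatives were DESeq2 1.42.0, other scalings, filters and thresholds, a gene length correction, fits with a replicate block, and fits without each library in turn.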

Additional observations from a re-analysis of the deposited data

How the results depend on the processing

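Otc was called in 15 of 17 alternatives (log2 fold change 0.70 to 0.93) and Cps1 in 16 of 17 (0.50 to 0.72). These tallies include looser limits on the main fit, no fold minimum and an adjusted p under 0.05, which keep every call by construction. With a fold minimum of 1 on the log2 scale 0 of the 9 genes were called, and with an RPKM of at least 50 only 1, Cps1, since Otc lies below that level. Oat stayed between 0.24 and 0.39 and was called only with no fold minimum. The sign turned for Asl when only library size was used for scaling (-0.0077), for Ass1 without mutant 3 (-0.066, up to 0.38 without mutant 2) and for Arg2 without mutant 2 (-0.14, up to 0.88 without mutant 1), none of which passed the test in any alternative. Library size as the only scaling shifted the median of all genes by -0.11.

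Over all genes, 348 were called higher and 729 lower. The higher count was 200 when only library size was used for scaling, 902 with no fold minimum, 85 with a fold minimum of 1 and 106 with the RPKM minimum. The lower count was 284 with a fold minimum of 1, 1178 at an adjusted p under 0.05 and 28 with the RPKM minimum, and 405 to 867 with 1 library left out (405 without wild type 1, 406 without wild type 2, 463 without mutant 2). The related genes called were 8 higher and 2 lower. The higher count was 3 when only library size was used for scaling and 5 with the length correction, and 5 to 9 with 1 library left out (5 without wild type 1 or mutant 1). Higher and lower counts were 1 and 0 with a fold minimum of 1, and 3 and 1 with the RPKM minimum. The lower count was 1 to 3 with 1 library left out (1 without wild type 1, wild type 2, mutant 1 or mutant 2). The cause of these shifts was not tested.

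Same-numbered libraries did not deviate together (correlations of 0.01, -0.04 and -0.02). The labels name no litters, and these correlations cannot show whether same-numbered libraries share one. With a replicate block 339 genes were called higher and 691 lower, and 2 of the 9 genes, Otc at 0.81 and Cps1 at 0.62.

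At 3 libraries a group, members with means below 100 normalized counts (Nags, Ass1, Arg1, Arg2) had wide intervals. Those of Nags, Ass1 and Arg2 reached above the log2 fold change of Otc, 0.80, while that of Arg1 ran from -0.87 to 0.44.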
